A study of Mus musculus with 12 samples.

Results

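The rescued PROSER1 line was set against wild-type cells after both had spent 48 hr in N2B27, the point at which the cultures had left the stem cell medium for 2 days. The comparison took the libraries whose labels give PROSER1 knockout with rescue (KO+Rescue) and wild type (WT) at day 2, 2 libraries of each and so 4 of the 12 RNA-seq libraries of the series. The remaining libraries are the PROSER1 knockout (KO) at day 2 and all 3 genotypes as mouse embryonic stem cells (mESCs). Their values are given below only where a value needs them beside it. All 12 libraries enter the filter on low counts and the estimate of spread behind each standard error and p-value. The question is how far cells in which Proser1 was put back differ from cells that never lost it. The mESC lines came from blastocysts with floxed Tet2 alleles (Tet2 fl/fl). They were grown without feeders in serum with LIF and inhibitors of the kinases MEK and GSK3. N2B27 is a serum-free medium in which mESCs leave pluripotency towards neural fates, and neither LIF nor the inhibitors are listed for it. The KO line came from a single sorted cell edited with a CRISPR guide to exon 1 of Proser1. KO+Rescue is that KO line with a PiggyBac transposon carrying the mouse Proser1 coding sequence with a C-terminal FLAG tag and a blasticidin resistance gene, selected in blasticidin and subcloned. No edit or selection is described for WT cells, and the sources do not say whether KO was made from this same WT line. So the edit, transgene, drug selection, descent from single cells and parental line cannot be told apart in any difference between KO+Rescue and WT. The columns of the deposited table name KO and KO+Rescue by the code of a line, a reading that no label states. The replicate letters A and B below are those of the columns, and no label says whether the biological replicates were separate cultures, so every p-value measures only the spread between these samples.

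PROSER1 is a proline- and serine-rich protein found with the TET dioxygenases, the glycosyltransferase OGT and the DBHS proteins PSPC1 and NONO, whose relative SFPQ pairs with PSPC1. TET enzymes oxidise 5-methylcytosine and so lead to DNA demethylation, OGT adds N-acetylglucosamine to proteins, and DBHS proteins bind RNA and chromatin. As mESCs leave the naive state, genes of naive pluripotency are shut off, formative genes such as Fgf5 and Otx2 come on, and neural genes follow, while Nodal and Wnt signals favour mesendoderm instead. The guide that made the KO line is shown because every KO+Rescue library descends from that edit. It matched the GRCm39 genome exactly 1 time, on the plus strand at chr3:53371720-53371738, in exon 1 of Proser1 and followed there by the PAM AGG. The capitals mark the BstBI site whose loss was used for genotyping.
Proser1 guide: gtgctggatgaaaTTCGAA

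The depth of the 4 libraries differed. KO+Rescue libraries A and B held 40899896 and 53056318 assigned read pairs, against 66450803 and 62446012 in WT libraries A and B, and over all 12 libraries the range was 38634668 to 66450803. A library at 0 therefore allows up to 3 reads, which are worth 2.82 to 3.52 normalised counts in KO+Rescue and 1.82 to 2.17 in WT, counting error only. Values are the authors' read counts normalised by DESeq2 size factors, called normalised counts here. Replicates differed by a median of 0.142 on the log2 scale between the KO+Rescue libraries and 0.30 between the WT libraries, and no pair was close enough to be a single library deposited under both letters. Stage markers followed the labels. Esrrb, a nuclear receptor of naive cells, was lower and Fgf5 was higher in every day 2 library than in every mESC library. The 12 libraries held at least 12.8% of reads in ribosomal protein genes, with 18% and 19.7% in KO+Rescue at day 2, against 12.8% and 16.3% in WT at day 2, so that share differed between the groups and the part it plays in the results below was not tested.

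At day 2 the rescued line differed from WT in many genes, more of them lower than higher. Of 15335 genes tested with limma, 1696 were called at an adjusted p under 0.05 (11.1% of those tested). Of these, 592 were higher (3.86%) and 1104 lower (7.2%) in KO+Rescue. These shares are the background for each count of list members below. At least a 2-fold change was fitted for 674 called genes, of which 165 were higher and 509 lower. The groups did not overlap in 59% of all tested genes, in either direction, which is the background for every such statement about single genes below. At an unadjusted p under 0.05 there were 4434 genes. A fit of the 4 libraries alone, without the spread within the other groups, called 686 genes (210 higher, 476 lower). The count of calls rested on single libraries, and was 455 (74 higher, 381 lower) without KO+Rescue A, 465 (65 higher, 400 lower) without KO+Rescue B, 799 (165 higher, 634 lower) without WT A and 2662 (1592 higher, 1070 lower) without WT B. Scaling also moved the split, since with equal library totals the median change over all tested genes was -0.22 on the log2 scale, against -0.03 as deposited, and 362 genes were higher and 1587 lower. A change reported below as higher is therefore smaller, and one reported as lower larger, by that shift where libraries are scaled to equal totals. Where a gene lost its call when 1 library was left out, or with equal library totals, the adjusted p of that fit is given beside it.

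**Figure D1:**
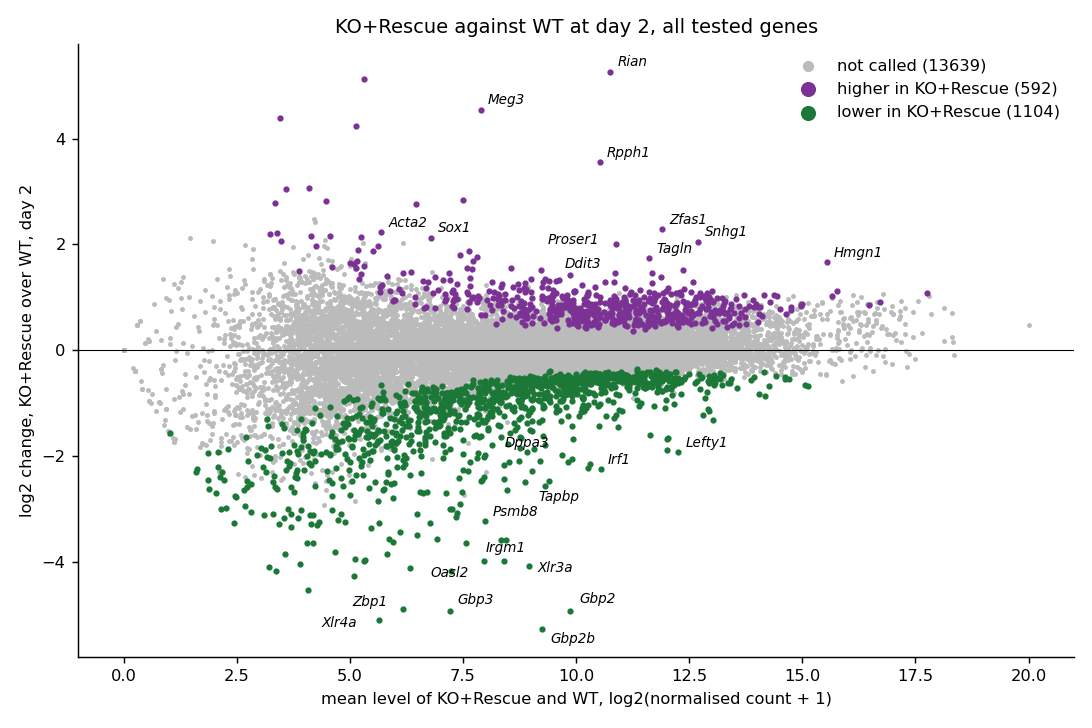
Log2 change of KO+Rescue over WT at day 2 (vertical axis) against level, the log2 of the mean normalised count of both groups plus 1 (horizontal axis), for each of the 15335 tested genes, with called genes in colour and the genes of the largest changes named. Of the called genes, 592 lie above 0 and 1104 below, and Rian at 5.26 and Gbp2b at -5.27 are the highest and the lowest.

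Proser1 itself was higher in the rescued line than in either other genotype. It had 3041 and 2994 in KO+Rescue libraries A and B, against 829 and 685 in WT libraries A and B. KO libraries held 872 and 1067 normalised counts of Proser1. The 2 KO+Rescue values lie above all 4 others, and the KO and WT values lie close together. The change against WT was 4.0-fold (log2 2.00 ± 0.20, adjusted p = 5.69e-05, n = 2 libraries each), and it remained called under all 14 alternative analyses. Against KO it was 3.13-fold (log2 1.64 ± 0.20, adjusted p = 0.00121), and in KO+Rescue mESCs against WT mESCs 4.22-fold (log2 2.08 ± 0.20, adjusted p = 0.000134). Reads of the transgene's coding sequence count towards the gene, and a small edit in exon 1 leaves counts over the rest of the gene in place, so these counts check the rescue but not the loss of the protein in KO. Proser1 lies at chr3:53463795-53481755 in GRCm38.p6.

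Of 9 genes for PROSER1, TET, OGT and DBHS proteins, 2 were called higher and 0 lower in KO+Rescue, with a median log2 change of 0.22. The other one was Tet2, whose product is the TET enzyme studied most closely with PROSER1 and whose gene is floxed in all groups. Tet2 had 150.2 and 109.9 in KO+Rescue, against 67.8 and 77.5 in WT. Both KO+Rescue values exceed both WT values, and the change was 1.76-fold (log2 0.82 ± 0.18, adjusted p = 0.0137). The call was lost with some libraries left out (adjusted p = 0.144 without KO+Rescue A, 0.0717 without WT A and 0.0728 with equal library totals), and KO held 117 and 141. Tet1 had 2669 and 2447 in KO+Rescue, against 1982 and 1485 in WT (log2 0.57 ± 0.20, adjusted p = 0.0748), and Tet3, Ogt, Pspc1, Nono and Sfpq had adjusted p from 0.148 to 0.902, none of them called. These 6 genes were named after their values were seen.

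Genes that interferons switch on were among the largest losses in the rescued line. Interferons act through JAK kinases and STAT transcription factors, whose targets often carry an interferon-stimulated response element (ISRE) or a gamma-activated site (GAS). Guanylate-binding proteins, GTPases that attack membranes around intracellular microbes, are among the strongest such targets. Of 7 tested guanylate-binding protein genes 5 were called lower and 0 higher, with a median log2 change of -4.18, where all tested genes had a median of -0.03 and 7.2% were lower. Their summed normalised counts were 210.0 and 146 in KO+Rescue, 187 and 203 in KO and 3465 and 4084 in WT. The KO+Rescue and KO sums lie within the same range, more than 10-fold under the WT sums, and Gbp5, Gbp6, Gbp10 and Gbp11 did not pass the filter on low counts.

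Gbp2b, the mouse counterpart of human GBP1, had 42.2 and 20.7 in KO+Rescue libraries A and B, against 1128 and 1226 in WT libraries A and B. Gbp2 had 68.1 and 49.8 in KO+Rescue, against 1610.2 and 1994 in WT. Gbp3 had 10.6 and 6.58 in KO+Rescue, against 243 and 332 in WT. In each of these 3 genes the lower WT value was over 20-fold above the higher KO+Rescue value. The fitted change was 38.5-fold for Gbp2b (log2 -5.27 ± 0.40, adjusted p = 6.42e-06), 30.3-fold for Gbp2 (log2 -4.92 ± 0.48, adjusted p = 5.11e-05) and 30.4-fold for Gbp3 (log2 -4.93 ± 0.59, adjusted p = 0.000261), all lower in KO+Rescue. Gbp4 was also lower, with 16.4 and 13.2 in KO+Rescue, against 269 and 297 in WT (log2 -4.18 ± 0.36, adjusted p = 2.12e-05). Gbp7 was lower as well (log2 -3.43 ± 0.66, adjusted p = 0.00694), though the call was lost without 1 library (adjusted p = 0.0815 without KO+Rescue B). Gbp8 and Gbp9 were not called, at adjusted p = 0.0786 and 0.122. Gbp genes are close copies of one another, so the share of reads each one received is uncertain.

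**Figure D2:**
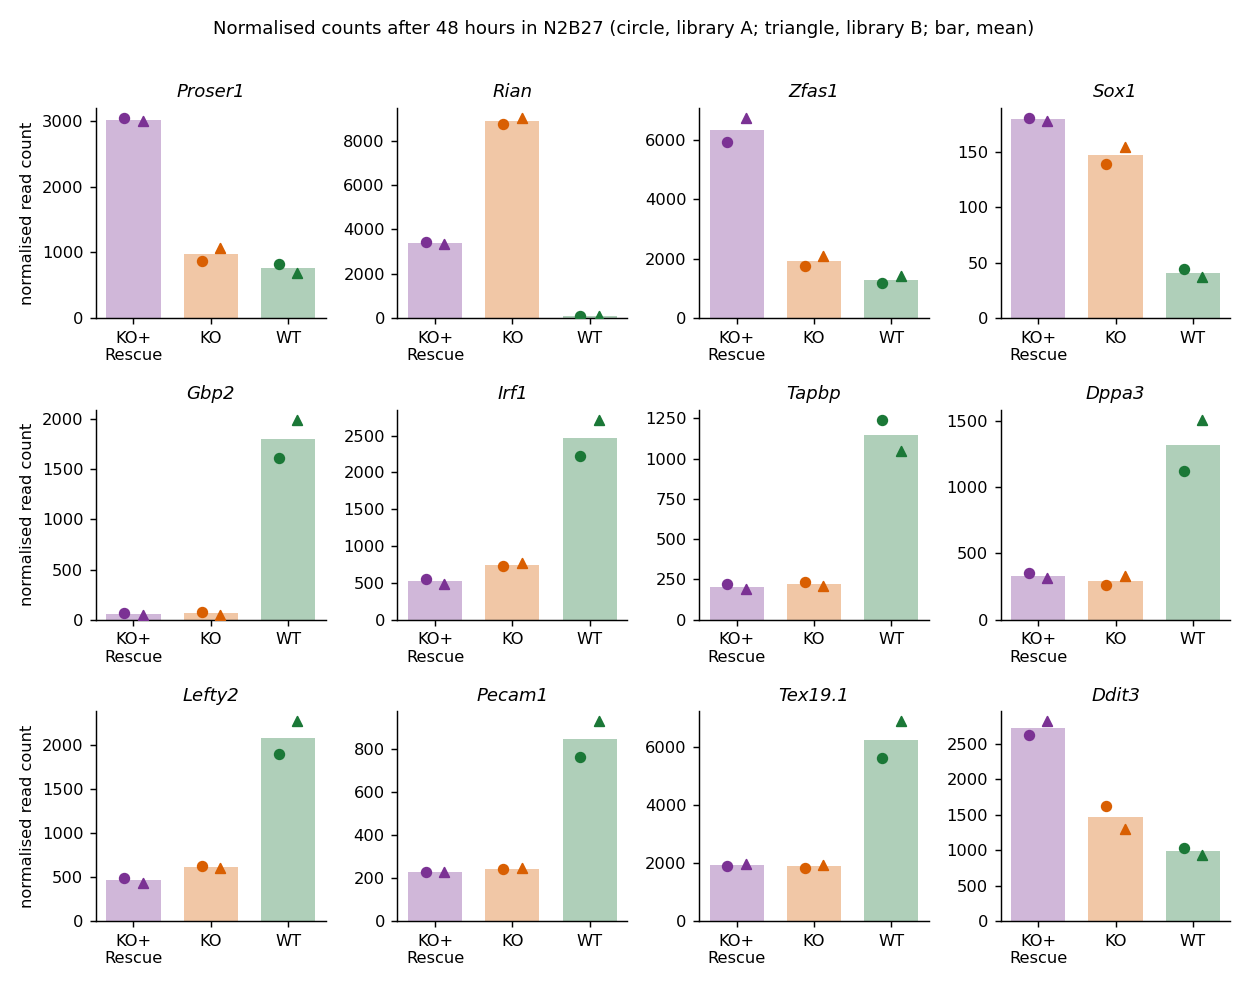
Normalised counts at day 2 of 12 genes, 1 panel each, on linear axes that start at 0. Bars are group means (n = 2) of KO+Rescue, KO and WT, circles are libraries A and triangles libraries B. The KO+Rescue and KO libraries lie together far under WT for Gbp2 and Irf1, while Proser1 is high in KO+Rescue alone.

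Of 33 tested genes of the interferon response and of nucleic acid sensing, 20 were lower and 0 higher in KO+Rescue, with a median log2 change of -1.08. The median was -0.90 for KO against WT and -0.16 for KO+Rescue against KO. The count of lower members was 14 without KO+Rescue replicate A, 10 without KO+Rescue replicate B, 15 without WT replicate A and 19 without WT replicate B. Irf1, a transcription factor that interferon gamma induces and that switches on many of these genes, had 558 and 480.0 in KO+Rescue, against 2228 and 2715 in WT, a 4.74-fold lower level (log2 -2.25 ± 0.13, adjusted p = 1.04e-06). Irgm1, an immunity-related GTPase, had 36.4 and 42.3 in KO+Rescue, against 671 and 605 in WT (log2 -3.99 ± 0.23, adjusted p = 8.55e-07). Zbp1, a sensor of Z-form nucleic acids, had 4.69 and 2.82 in KO+Rescue, against 130.1 and 146 in WT (log2 -4.89 ± 0.38, adjusted p = 8.96e-06). The WT values of these 3 genes lie well above the KO+Rescue values. Oasl2, a relative of the oligoadenylate synthetases that sense double-stranded RNA, was 15.7-fold lower (log2 -3.97 ± 0.37, adjusted p = 3.97e-05), Parp14, an ADP-ribosyltransferase, 6.37-fold lower (log2 -2.67 ± 0.25, adjusted p = 3.93e-05), and Irgm2, another immunity-related GTPase with close copies in the genome and no member of the list, 17.2-fold lower (log2 -4.11 ± 0.51, adjusted p = 0.000352). These 6 genes remained called under every alternative that tested them. There were 14 of these for Irf1, Irgm1, Oasl2 and Parp14 and 13 for Zbp1 and Irgm2. Isg15, a ubiquitin-like modifier, had 3.52 and 2.82 in KO+Rescue, against 50.8 and 76.8 in WT (log2 -3.93 ± 0.87, adjusted p = 0.0141), and lost its call without some libraries (adjusted p = 0.0773 without KO+Rescue A, 0.0958 without KO+Rescue B and 0.0538 without WT A).

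Sensors of foreign RNA and DNA were among the other members called lower. Tmem173, the gene for the DNA signal adaptor STING, had 11.7 and 24.4 in KO+Rescue, against 199 and 118 in WT (log2 -3.10 ± 0.36, adjusted p = 0.000239). Ddx58, which encodes the RNA sensor RIG-I, had 297 and 282 in KO+Rescue, 403 and 430.2 in KO and 658 and 519.5 in WT (log2 -1.01 ± 0.16, adjusted p = 0.00184 against WT). Ifih1, which encodes the RNA sensor MDA5, had 5.87 and 2.82 in KO+Rescue, against 36.9 and 57.2 in WT (log2 -3.20 ± 0.68, adjusted p = 0.0117). Igtp, another immunity-related GTPase, had 30.5 and 32.9 in KO+Rescue, 87.9 and 76.3 in KO and 285 and 294 in WT (log2 -3.15 ± 0.37, adjusted p = 0.000243 against WT). In all 4 genes both KO+Rescue values lie under both WT values, and for Ddx58 and Igtp the KO values lie between them. Tmem173, Ddx58 and Igtp remained called under all alternatives. Ifih1 lost the call without KO+Rescue B (adjusted p = 0.103), without WT A (adjusted p = 0.0511) and without WT B (adjusted p = 0.0553). These 4 genes were named after their values were seen.

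The genes that carry the interferon signal itself were either lower or not called. Stat2, which type I interferon receptors activate, had 238 and 229 in KO+Rescue, against 358 and 372 in WT (log2 -0.64 ± 0.15, adjusted p = 0.0188), and Irf9, its partner, 73.9 and 51.7 in KO+Rescue, against 108 and 159 in WT (log2 -1.08 ± 0.21, adjusted p = 0.00778). Both calls were lost when single libraries were left out, with adjusted p between 0.0661 and 0.122 for Stat2 and adjusted p = 0.0942 without KO+Rescue B for Irf9. The receptor genes Ifngr1 and Ifngr2 and the kinase genes Jak1 and Jak2 were not called, at adjusted p from 0.459 to 0.7. Nlrc5, which activates MHC class I genes, had 38.7 and 19.7 in KO+Rescue, against 27.8 and 38.4 in WT (log2 -0.23 ± 0.72, adjusted p = 0.864), and its groups overlap. These 7 genes were named after their values were seen.

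The promoters of 4 of these genes are shown because they hold a match to a motif of the interferon response and the genes were lower together. Each runs from 250 bases before to 50 bases after the start of transcription (RefSeq, GRCm38.p6), and the capitals mark matches on either strand to the ISRE core, GAAA and a second GAAA with 2 bases of any kind between them, or to the GAS core, TTCNNNGAA. Overlapping matches were counted. The matches in Gbp3 and Irgm1 are each a pair of overlapping ISRE cores, and the match in Irf1 is a GAS core.
Gbp2 (chr3:142620413-142620712, plus strand): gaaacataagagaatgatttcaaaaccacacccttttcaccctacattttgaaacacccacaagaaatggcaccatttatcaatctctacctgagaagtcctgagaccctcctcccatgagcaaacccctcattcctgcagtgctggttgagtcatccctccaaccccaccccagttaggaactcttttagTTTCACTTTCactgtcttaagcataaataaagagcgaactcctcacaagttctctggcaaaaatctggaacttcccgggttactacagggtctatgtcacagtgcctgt
Gbp3 (chr3:142559794-142560093, plus strand): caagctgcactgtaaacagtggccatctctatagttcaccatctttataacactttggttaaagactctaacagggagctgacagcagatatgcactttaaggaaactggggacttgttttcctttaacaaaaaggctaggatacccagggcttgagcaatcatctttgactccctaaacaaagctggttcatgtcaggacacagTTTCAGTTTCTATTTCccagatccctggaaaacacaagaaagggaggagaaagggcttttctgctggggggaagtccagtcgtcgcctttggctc
Irgm1 (chr11:48871371-48871670, minus strand): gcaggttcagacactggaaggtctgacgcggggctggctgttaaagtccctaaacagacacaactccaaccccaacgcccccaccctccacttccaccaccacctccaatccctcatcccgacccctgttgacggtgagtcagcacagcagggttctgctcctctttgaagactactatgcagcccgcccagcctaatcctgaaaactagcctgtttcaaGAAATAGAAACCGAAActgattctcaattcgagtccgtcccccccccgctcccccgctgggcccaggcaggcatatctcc
Irf1 (chr11:53769764-53770063, plus strand): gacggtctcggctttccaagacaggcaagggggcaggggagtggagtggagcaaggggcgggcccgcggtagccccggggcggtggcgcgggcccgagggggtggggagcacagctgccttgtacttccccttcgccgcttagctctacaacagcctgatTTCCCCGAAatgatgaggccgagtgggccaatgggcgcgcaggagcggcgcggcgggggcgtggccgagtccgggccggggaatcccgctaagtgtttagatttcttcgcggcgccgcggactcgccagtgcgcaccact
Of the 15335 tested genes 11394 had a promoter in the table, and 3.42% of these held an ISRE core and 8.18% a GAS core. All 4 matched guanylate-binding protein genes held an ISRE core and 1 held a GAS core. Of 25 matched interferon response genes 14 (56%) held an ISRE core and 7 (28%) a GAS core. Among 15 matched genes of the immunoproteasome and MHC class I, 4 (26.7%) held an ISRE core and 2 (13.3%) a GAS core. Gbp3 and Irf1 each have another listed promoter that holds neither core, as do Oasl2 and Tapbp in their only one, while that of Psmb8 holds a GAS core. A match describes letters in this window and not a bound site. The guanylate-binding protein and interferon response lists hold targets of interferons, so a higher share of these motifs may follow from that choice. The shares do not separate called members from the others.

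MHC class I molecules show peptides at the cell surface, cut by the immunoproteasome and loaded with the help of tapasin. Of 18 tested genes of this pathway 8 were called lower and 0 higher, with a median log2 change of -0.62. The median was -0.88 for KO against WT and 0.10 for KO+Rescue against KO. The count was 3 without KO+Rescue replicate A, 4 without KO+Rescue replicate B, 8 without WT replicate A and 5 without WT replicate B. Tapbp, the gene for tapasin, had 223 and 189 in KO+Rescue, against 1242 and 1048 in WT (log2 -2.47 ± 0.17, adjusted p = 3.67e-06). Erap1, which trims peptides in the endoplasmic reticulum, had 222 and 137 in KO+Rescue, against 924 and 787 in WT (log2 -2.28 ± 0.25, adjusted p = 0.000128). Psmb8, a catalytic subunit of the immunoproteasome, had 50.5 and 45.1 in KO+Rescue, against 383 and 539 in WT (log2 -3.22 ± 0.39, adjusted p = 0.000306). All 3 were over 3-fold lower in every KO+Rescue library than in any WT library, and they remained called under all 14 alternatives. Tapbpl, an editor of peptide loading, was 1.98-fold lower (log2 -0.99 ± 0.19, adjusted p = 0.00618). H2-K1, a classical class I heavy chain, was 1.46-fold lower (log2 -0.55 ± 0.13, adjusted p = 0.0216), a call that single libraries decided (adjusted p = 0.134 without KO+Rescue A, 0.12 without KO+Rescue B and 0.0938 without WT A). Tapbpl lost the call without KO+Rescue A (adjusted p = 0.063).

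The naive pluripotency genes that were called were lower in the rescued line, while core pluripotency genes were not called. Of 21 tested naive genes 8 were lower and 0 higher, with a median log2 change of -0.49, and the count was 4 without KO+Rescue replicate A, 6 without KO+Rescue replicate B, 7 without WT replicate A and 8 without WT replicate B. In the naive list 13 members had a log2 change below 0 and 8 above it, up to 0.59. Its summed normalised counts were 42990 and 51377 in KO+Rescue, against 38000 and 54853 in WT. The sums thus overlap between the groups. The median log2 change of the naive list was -0.38 for KO against WT and 0.08 for KO+Rescue against KO. Pecam1, an adhesion molecule of naive cells, had 229 and 229 in KO+Rescue, against 762 and 929 in WT (log2 -1.87 ± 0.15, adjusted p = 9.46e-06). Esrrb had 90.3 and 131 in KO+Rescue, against 357 and 307 in WT (log2 -1.60 ± 0.21, adjusted p = 0.000523). Nr5a2, another nuclear receptor that sustains the naive state, had 51.6 and 38.5 in KO+Rescue, against 148 and 114 in WT (log2 -1.52 ± 0.22, adjusted p = 0.000949). Each WT value of these genes lies more than 2-fold above each KO+Rescue value, and all 3 remained called under all alternatives. Manba, which encodes a lysosomal mannosidase, was 1.95-fold lower (log2 -0.96 ± 0.14, adjusted p = 0.00104), and Stat3, the transcription factor that carries the LIF signal, 1.89-fold lower (log2 -0.92 ± 0.18, adjusted p = 0.00677). Of the 10 core pluripotency genes tested 0 were called by limma, with a median log2 change of 0.17. At an unadjusted p under 0.05 there were 2, while edgeR called 0 higher and 0 lower and DESeq2 1 higher and 0 lower. Among them, Pou5f1, which encodes OCT4, had 66471 and 75176 in KO+Rescue, against 45341 and 61662 in WT (log2 0.42 ± 0.20, adjusted p = 0.184). Nanog, named after its values were seen, had 590.2 and 564 in KO+Rescue, against 518 and 865 in WT (log2 -0.21 ± 0.19, adjusted p = 0.481), with overlapping groups. Within LIF and STAT3 signalling 5 of 16 tested genes were lower and 0 higher, namely Stat3, the receptor subunit Il6st (log2 -0.60 ± 0.14, adjusted p = 0.0165), the kinase gene Pim1 (log2 -0.71 ± 0.14, adjusted p = 0.00693) and the feedback inhibitors Socs1 (log2 -1.23 ± 0.29, adjusted p = 0.0176) and Socs3 (log2 -0.60 ± 0.15, adjusted p = 0.0272). That count was 0 without KO+Rescue replicate A, 3 without KO+Rescue replicate B, 3 without WT replicate A and 5 without WT replicate B. Stat3, Il6st, Pim1, Socs1 and Socs3 lost their calls without KO+Rescue A (adjusted p from 0.0806 to 0.126). Il6st, Socs1 and Socs3 lost their calls without KO+Rescue B (adjusted p = 0.124, 0.0751 and 0.155). Socs1 and Socs3 lost their calls without WT A (adjusted p = 0.115 and 0.0914).

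Dppa3, also known as Stella, restrains UHRF1 and so maintenance of DNA methylation, and it marks naive cells and the germline. It had 349.6 and 314 in KO+Rescue libraries A and B, against 1122 and 1509 in WT libraries A and B, a 3.92-fold lower level (log2 -1.97 ± 0.21, adjusted p = 0.000133), and remained called under all alternatives. KO held 262 and 326, close to KO+Rescue. Dnmt3l, a cofactor of the de novo methyltransferases, had 2659 and 2608 in KO+Rescue, against 4803 and 4240.1 in WT (log2 -0.78 ± 0.14, adjusted p = 0.0056). These were the 2 genes called lower among 12 of the DNA methylation machinery, with 0 higher and a median log2 change of -0.27. Dnmt1, Dnmt3a, Dnmt3b and Uhrf1, named after their values were seen, had adjusted p from 0.115 to 0.862 and log2 changes from -0.32 to 0.36. Dnmt3l lost the call without KO+Rescue B (adjusted p = 0.057).

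Nodal, a TGF-beta family ligand, acts at the choice between neural and mesendodermal fates, and its targets include its own antagonists Lefty1 and Lefty2. In the rescued line 6 of 18 tested Nodal pathway genes were lower and 0 higher, with a median log2 change of -0.16. The count was 3 without KO+Rescue replicate A, 3 without KO+Rescue replicate B, 5 without WT replicate A and 5 without WT replicate B. Lefty2 had 495 and 439 in KO+Rescue libraries A and B, against 1901 and 2266 in WT libraries A and B (log2 -2.15 ± 0.12, adjusted p = 8.55e-07). Lefty1 had 1918 and 2165 in KO+Rescue, against 6976 and 8595 in WT (log2 -1.93 ± 0.15, adjusted p = 1.03e-05). Both antagonists were over 3-fold lower in each KO+Rescue library than in each WT library and remained called under all alternatives. Nodal itself had 855 and 871 in KO+Rescue, against 1269 and 1716 in WT (log2 -0.77 ± 0.14, adjusted p = 0.0054). Skil, a repressor of SMAD proteins that Nodal signals induce, had 6612 and 5692 in KO+Rescue, against 9121 and 9290.2 in WT (log2 -0.59 ± 0.12, adjusted p = 0.0102). Inhbb, a subunit of activin, was also called and named after its values were seen, with 4.69 and 5.64 in KO+Rescue, against 17.6 and 13 in WT (log2 -1.39 ± 0.35, adjusted p = 0.0266). The receptors, SMAD genes and Tdgf1, the Nodal coreceptor, were not called. Nodal and Inhbb lost their calls without KO+Rescue A (adjusted p = 0.0538 and 0.148). Skil and Inhbb lost their calls without KO+Rescue B (adjusted p = 0.122 and 0.1). Inhbb lost the call without WT A (adjusted p = 0.129).

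The KO libraries of the same stage are given beside these values because the rescued line descends from them, and the comparisons share libraries, so the values stand side by side with no test of their likeness. For Nodal the values were 855 and 871 in KO+Rescue, 2583 and 2355 in KO and 1269 and 1716 in WT, so that KO lay above WT and KO+Rescue below it. KO differed from WT by log2 0.74 (adjusted p = 0.00915), and KO+Rescue from KO by log2 -1.51 (adjusted p = 0.000476). In all, 5.16% of tested genes were called between KO and WT and 1.83% between KO+Rescue and KO at day 2. For Lefty1 the values were 1918 and 2165 in KO+Rescue, 3898 and 2971 in KO and 6976 and 8595 in WT, with KO between the others. Fst, the gene for follistatin that blocks activin, had 568 and 480.0 in KO+Rescue, 2049.9 and 1951 in KO and 1089.6 and 646 in WT. The order was the same as for Nodal, with log2 1.25 for KO against WT (adjusted p = 0.00309) and -0.68 for KO+Rescue against WT (adjusted p = 0.048), the second of which was lost without single libraries (adjusted p = 0.123 without KO+Rescue A, 0.27 without KO+Rescue B and 0.361 without WT A).

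Of 11 tested mesendoderm genes 2 were lower and 0 higher in KO+Rescue, with a median log2 change of -0.68. Their summed normalised counts were 1086 and 901 in KO+Rescue, 3189 and 3021 in KO and 2191 and 1637 in WT. The KO+Rescue sums lie under both WT sums and the KO sums above them, and fewer cells of this kind and less RNA per cell cannot be told apart in bulk RNA. The count of lower members was 3 without KO+Rescue replicate A, 1 without KO+Rescue replicate B, 1 without WT replicate A and 3 without WT replicate B. Wnt8a, a ligand of early mesoderm, had 285 and 243 in KO+Rescue, against 770.0 and 729.6 in WT (log2 -1.51 ± 0.20, adjusted p = 0.000554) and remained called under all alternatives, and Fst was the other member called. The primitive streak genes T and Eomes, named after their values were seen, were not called against WT. T had 22.3 and 21.6 in KO+Rescue, 90.1 and 73.3 in KO and 30.3 and 34.8 in WT, with an adjusted p of 0.183 against WT and 0.00325 against KO. Eomes had 73.9 and 51.7 in KO+Rescue, 310.2 and 312 in KO and 117 and 65.2 in WT, with an adjusted p of 0.209 against WT and 0.000625 against KO. KO lay above both other genotypes in both genes, as it did for Nanog, which had 1691 and 1621 in KO.

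The developmental regulators that the study names were drawn from these libraries, so their values are no independent evidence. Of the 8 tested 1, not reported here, was called lower in KO+Rescue than in WT and 0 higher. Over all tested genes 7.2% were lower and 3.86% higher. The 8 had a median log2 change of 0.23 in KO+Rescue against WT, where KO against WT had a median of 1.38. Their summed normalised counts were 519 and 515 in KO+Rescue, 1317 and 1368 in KO and 587 and 669 in WT. Pax6, a neural and eye regulator, had 104 and 87.4 in KO+Rescue, 118 and 182 in KO and 56.3 and 47.8 in WT and was not called against WT (log2 0.87 ± 0.32, adjusted p = 0.0954). The Polycomb gene Cbx8 had 61 and 72.3 in KO+Rescue, 147 and 136 in KO and 63 and 53.6 in WT. It was not called against WT (log2 0.19 ± 0.27, adjusted p = 0.679), and the 95% interval of the log2 change was -0.39 to 0.77. KO lies above both other genotypes for this gene. Barx1, Prdm8, Tbx15 and Mef2c were not called either, at adjusted p from 0.17 to 0.753. Prdm8 had 16.4 and 9.39 in KO+Rescue, 47.3 and 61.4 in KO and 3.03 and 5.07 in WT. Tbx15 had 28.2 and 46 in KO+Rescue, 96 and 80.8 in KO and 18.2 and 17.4 in WT, and in both genes KO was highest and KO+Rescue lay between the others. Barx1 had 36.4 and 47 in KO+Rescue, 100.5 and 96.5 in KO and 36.3 and 31.9 in WT. Mef2c had 23.5 and 25.4 in KO+Rescue, 11.1 and 8.23 in KO and 45.4 and 30.4 in WT, with KO lowest. Eya4 did not pass the filter and had 8.21 and 5.64 in KO+Rescue, 21.4 and 34.4 in KO and 3.03 and 2.90 in WT.

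**Figure D3:**
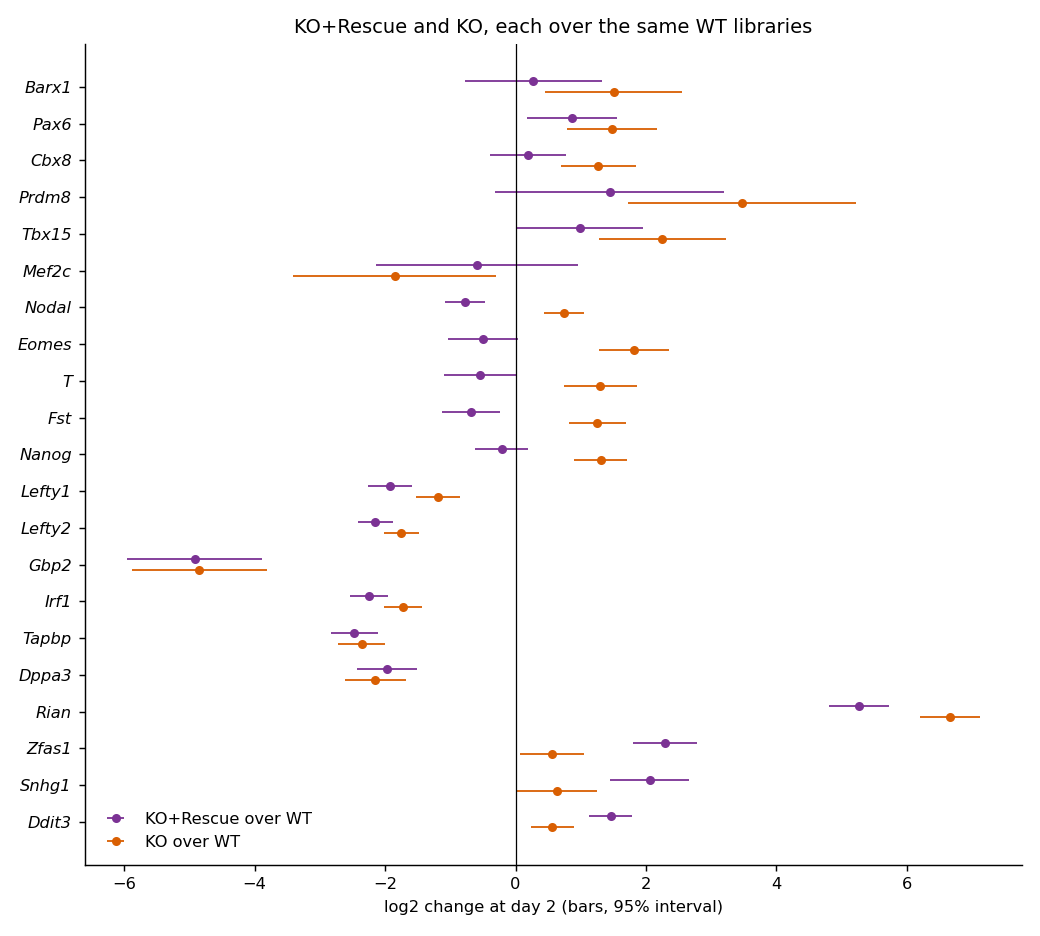
Log2 change at day 2 of KO+Rescue over WT and of KO over WT for 21 genes, with bars for the 95% interval. The 2 comparisons share the WT libraries. For Nodal and Fst the KO change lies above 0 and the KO+Rescue change below it.

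Sox1, an early marker of neuroectoderm, had 181 and 178 in KO+Rescue, against 44.2 and 37 in WT, 4.36-fold higher in KO+Rescue (log2 2.12 ± 0.34, adjusted p = 0.00211), and KO held 139.6 and 154. It was the only one called of 10 early neural genes under limma, with a list median of 0.46, and it remained called under all alternatives. Nes, the gene for nestin and named after its values were seen, had 3552 and 3683 in KO+Rescue, against 3723 and 2024 in WT, with overlapping groups. Of 20 neuronal differentiation genes 2 were higher (10%) and 1 lower (5%). For each list of this paragraph the background is 3.86% higher and 7.2% lower over all tested genes. The microtubule regulators Stmn2 (log2 0.75 ± 0.19, adjusted p = 0.0245) and Stmn3 (log2 0.85 ± 0.21, adjusted p = 0.0216) were higher and Tubb3, a neuronal tubulin, lower (log2 -0.47 ± 0.13, adjusted p = 0.0401). None of these 3 calls was kept without KO+Rescue A, with adjusted p between 0.101 and 0.178 for Stmn2, adjusted p between 0.0978 and 0.143 for Stmn3 and adjusted p between 0.114 and 0.247 for Tubb3 over the libraries whose omission ended the call. Among 19 formative and primed genes the zinc finger gene Zic2 was higher (log2 0.69 ± 0.17, adjusted p = 0.0226), and 3 genes were lower, namely Nodal, the epithelial regulator Grhl2 (log2 -0.76 ± 0.18, adjusted p = 0.0191) and Tcf15 (log2 -0.72 ± 0.21, adjusted p = 0.0441). Without KO+Rescue A none of these 4 was called. Zic2, Grhl2 and Tcf15 lost their calls without KO+Rescue A (adjusted p = 0.142, 0.135 and 0.115) and without KO+Rescue B (adjusted p = 0.115, 0.0907 and 0.261). Grhl2 and Tcf15 lost their calls without WT A (adjusted p = 0.135 and 0.0954). Zic2 and Tcf15 lost their calls without WT B (adjusted p = 0.0675 and 0.095). Zic2 lost the call with equal library totals (adjusted p = 0.157). Gli2, a transcription factor of the Hedgehog pathway, had 303 and 318 in KO+Rescue, against 99.3 and 113 in WT (log2 1.54 ± 0.17, adjusted p = 0.000135) and was the one called among 14 Hedgehog genes. It remained called under all alternatives, and KO held 296 and 344.

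The largest gains in the rescued line lay in an imprinted cluster. Imprinted genes are read from the allele of one parent, which DNA methylation set in the germline decides, and in the Dlk1-Dio3 cluster of chromosome 12 the maternal allele makes the long noncoding RNAs Meg3, Rian and Mirg, hosts of snoRNAs and miRNAs. Rian (chr12:109603945-109661716, GRCm38.p6) had 3413 and 3322 in KO+Rescue libraries A and B, against 70.2 and 107 in WT libraries A and B. Meg3 had 472 and 439 in KO+Rescue, against 15.7 and 21.7 in WT. Mirg had 58.7 and 70.5 in KO+Rescue, against 0.605 and 6.52 in WT. WT was near the floor for Mirg and low for the others, and all KO+Rescue values were more than 8-fold above the highest WT value. The change was 38.4-fold for Rian (log2 5.26 ± 0.21, adjusted p = 4.17e-08), 23.4-fold for Meg3 (log2 4.55 ± 0.37, adjusted p = 1.13e-05) and 18.8-fold for Mirg (log2 4.23 ± 0.60, adjusted p = 0.000949). The snoRNA gene AF357359, which lies inside Rian (chr12:109650709-109650738) and whose reads cannot be told from its host's, had 85.7 and 64.8 in KO+Rescue, against 0 and 3.62 in WT (log2 5.13 ± 0.61, adjusted p = 0.000243). All 4 remained called under all alternatives. KO was higher again, with 8732 and 9014 for Rian, 1361 and 1513 for Meg3 and 208 and 174 for Mirg, and KO+Rescue was lower than KO for Rian (log2 -1.40 ± 0.21, adjusted p = 0.0058) and Meg3 (log2 -1.66 ± 0.37, adjusted p = 0.0411). The paternally read genes Dlk1 and Dio3 and the neighbour Begain were not called, at adjusted p = 0.819, 0.279 and 0.942. Thus 3 of 6 genes of the cluster were higher and 0 lower, with a median log2 change of 2.43.

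Outside that cluster 4 of 43 tested imprinted genes were higher and 9 lower, with a median log2 change of -0.05, where 3.86% and 7.2% of all tested genes were higher and lower. The lower count was 5 without KO+Rescue replicate A, 5 without KO+Rescue replicate B, 7 without WT replicate A and 10 without WT replicate B, and the higher count 2 without KO+Rescue replicate A, 2 without KO+Rescue replicate B, 3 without WT replicate A and 4 without WT replicate B. Cdkn1c, a maternally read inhibitor of cyclin-dependent kinases, had 2056 and 1658 in KO+Rescue, against 4105 and 3263 in WT (log2 -0.99 ± 0.15, adjusted p = 0.00186). Grb10, a brake on insulin signals, had 2771 and 2761 in KO+Rescue, against 6002 and 4629.9 in WT (log2 -0.93 ± 0.16, adjusted p = 0.00345). Peg12 had 64.5 and 78.9 in KO+Rescue, against 258 and 168 in WT (log2 -1.53 ± 0.26, adjusted p = 0.00353). These 3 were lower in both KO+Rescue libraries than in both WT libraries, and higher were Impact, a regulator of translation with 6463 and 5549 in KO+Rescue, against 3500.0 and 3206 in WT (log2 0.84 ± 0.13, adjusted p = 0.00145), and Zdbf2 (log2 1.09 ± 0.20, adjusted p = 0.0046). The other higher members, named after their values were seen, were Plagl1, a paternally read zinc finger gene (log2 1.02 ± 0.26, adjusted p = 0.0291), and Nespas, an antisense RNA of the Gnas cluster whose reads may mix with those of its sense partner (log2 1.07 ± 0.22, adjusted p = 0.00931). The calls of Cdkn1c, Grb10, Peg12 and Impact were kept under all alternatives. Zdbf2 and Plagl1 lost their calls without KO+Rescue A (adjusted p = 0.0667 and 0.179). Plagl1 and Nespas lost their calls without KO+Rescue B (adjusted p = 0.099 and 0.0995). Nespas lost the call without WT A (adjusted p = 0.0688). Plagl1 lost the call without WT B (adjusted p = 0.0825) and with equal library totals (adjusted p = 0.0954).

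Many germline genes are silenced by promoter methylation in somatic cells. Of 38 tested germline and meiosis genes 9 were lower and 2 higher, with a median log2 change of 0.05, and the lower count was 7 without KO+Rescue replicate A, 8 without KO+Rescue replicate B, 9 without WT replicate A and 9 without WT replicate B. Xlr3a, of an X-linked family expressed in germ cells and lymphocytes, had 42.2 and 64.8 in KO+Rescue, against 676 and 1201 in WT (log2 -4.08 ± 0.36, adjusted p = 2.71e-05). Xlr3b had 59.8 and 42.3 in KO+Rescue, against 446 and 854 in WT (log2 -3.59 ± 0.33, adjusted p = 3.52e-05), and Xlr4a 5.87 and 0 in KO+Rescue, against 61.1 and 129 in WT (log2 -5.10 ± 0.82, adjusted p = 0.00226). The Xlr genes were over 7-fold lower in every KO+Rescue library than in any WT library, but they are near-identical copies, so which copy the reads came from is uncertain. Tex19.1, which protects germ cells from transposons, had 1904 and 1975 in KO+Rescue, against 5615 and 6887 in WT (log2 -1.68 ± 0.14, adjusted p = 1.11e-05), and its neighbour copy Tex19.2 88 and 62 in KO+Rescue, against 267 and 391 in WT (log2 -2.11 ± 0.25, adjusted p = 0.000243). Stra8, a retinoic acid target that starts meiosis, had 201 and 194 in KO+Rescue, against 623 and 910.0 in WT (log2 -1.93 ± 0.23, adjusted p = 0.000279), with 103 and 68.8 in KO. All 6 remained called under all alternatives. The 2 higher members, named after their values were seen, both act in the piRNA pathway of germ cells. Ddx4, the germ cell RNA helicase VASA, had 2927 and 2789.9 in KO+Rescue, 1387 and 1489 in KO and 1388 and 1609 in WT (log2 0.94 ± 0.12, adjusted p = 0.000583 against WT), and KO+Rescue lies above both other genotypes. Mael had 2212 and 2287 in KO+Rescue, against 884 and 1519 in WT (log2 0.96 ± 0.22, adjusted p = 0.0152). Among 19 repressors of germline genes and imprints 1 was lower and 0 higher, Morc1, which silences transposons in the male germline, with 241 and 289 in KO+Rescue, against 609 and 939.7 in WT (log2 -1.52 ± 0.22, adjusted p = 0.00112). Zscan4d, a gene of the 2-cell embryo with near-identical copies, was higher at a low level, with 7.04 and 22.5 in KO+Rescue, against 1.82 and 2.17 in WT (log2 2.20 ± 0.46, adjusted p = 0.0108), the only one called of 4. Mael lost the call without KO+Rescue A (adjusted p = 0.0915) and without WT A (adjusted p = 0.1). Mael and Zscan4d lost their calls without KO+Rescue B (adjusted p = 0.108 and 0.111).

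Genes of signalling pathways were read against 7.2% lower and 3.86% higher over all tested genes. Of 21 Wnt targets and ligands 5 were lower, of 16 BMP targets and ID genes 5, of 17 genes of ERK feedback 5, of 15 Notch genes 3, of 16 immediate early genes 2 and of 15 FGF ligands and receptors 1, with 0 higher in each of these lists. The FGF share lies near that over all genes. Of 20 retinoic acid genes 1 was lower, Stra8, and 1 higher, and higher genes elsewhere included Gli2 in the Hedgehog list and Hmga2 in the Lin28 and let-7 list. Notum, which removes a lipid from Wnt ligands as feedback, had 8.21 and 16 in KO+Rescue, against 73.2 and 54.3 in WT (log2 -2.36 ± 0.30, adjusted p = 0.000409). Id1, an inhibitor of neural bHLH factors that BMP induces, had 55.1 and 53.5 in KO+Rescue, against 184 and 130.4 in WT (log2 -1.49 ± 0.19, adjusted p = 0.000509). Both were lower in each KO+Rescue library than in each WT library and remained called under all alternatives. Axin2, the common Wnt feedback gene, was lower (log2 -0.85 ± 0.17, adjusted p = 0.00876), as were Ccnd2, a D-type cyclin (log2 -0.98 ± 0.21, adjusted p = 0.0122), and Bmp4 (log2 -0.93 ± 0.23, adjusted p = 0.0244). Axin2, Ccnd2 and Bmp4 lost their calls without KO+Rescue A (adjusted p = 0.0538, 0.089 and 0.0652), without KO+Rescue B (adjusted p = 0.074, 0.0803 and 0.166) and without WT A (adjusted p = 0.052, 0.0959 and 0.173).

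Id3 was lower (log2 -0.53 ± 0.12, adjusted p = 0.0161), as were Hes1, the effector of Notch (log2 -0.66 ± 0.13, adjusted p = 0.00931), and Smad6, an inhibitor of BMP signals (log2 -0.94 ± 0.26, adjusted p = 0.0346). In the Notch list the glycosyltransferase gene Mfng (log2 -0.78 ± 0.18, adjusted p = 0.0155) and the ligand gene Dll3 (log2 -1.34 ± 0.34, adjusted p = 0.0276) were lower. The called ERK genes were Phlda1 (log2 -1.25 ± 0.25, adjusted p = 0.00868), Ccnd1 (log2 -0.62 ± 0.13, adjusted p = 0.0107), Spry1 (log2 -0.87 ± 0.20, adjusted p = 0.0153), Epha2 (log2 -0.58 ± 0.14, adjusted p = 0.0194) and Ier3 (log2 -1.05 ± 0.26, adjusted p = 0.0236), all lower. Spry1 is a feedback inhibitor of receptor tyrosine kinases and Ccnd1 a D-type cyclin. The number of lower ERK genes was 1 without KO+Rescue replicate A, 1 without KO+Rescue replicate B, 1 without WT replicate A and 5 without WT replicate B. Fos, an immediate early transcription factor, had 21.1 and 25.4 in KO+Rescue, against 75.1 and 79 in WT (log2 -1.69 ± 0.42, adjusted p = 0.0227). Nr4a1 (log2 -0.74 ± 0.22, adjusted p = 0.0461) and Fgf17 (log2 -0.66 ± 0.19, adjusted p = 0.0383) were lower as well. Hmga2, a chromatin protein that let-7 restrains, had 422 and 367 in KO+Rescue, 861 and 959 in KO and 243 and 281 in WT (log2 0.59 ± 0.16, adjusted p = 0.0352 against WT). KO lay above both other genotypes for this gene, and the Lin28 list held 1 higher and 1 lower of 16, the lower one being Ccnd2. Phlda1, Spry1, Epha2, Ier3, Id3, Hes1, Smad6, Mfng, Dll3, Fos, Nr4a1, Fgf17 and Hmga2 lost their calls without KO+Rescue A (adjusted p from 0.0516 to 0.217). Phlda1, Ccnd1, Epha2, Ier3, Id3, Hes1, Smad6, Mfng, Dll3, Fos, Nr4a1, Fgf17 and Hmga2 lost their calls without KO+Rescue B (adjusted p from 0.0742 to 0.302). Phlda1, Ccnd1, Spry1, Epha2, Smad6, Mfng, Dll3, Fos, Nr4a1 and Hmga2 lost their calls without WT A (adjusted p from 0.0648 to 0.265). Ier3, Fos and Fgf17 lost their calls without WT B (adjusted p = 0.079, 0.0539 and 0.147). Hmga2 lost the call with equal library totals (adjusted p = 0.213).

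**Figure D4:**
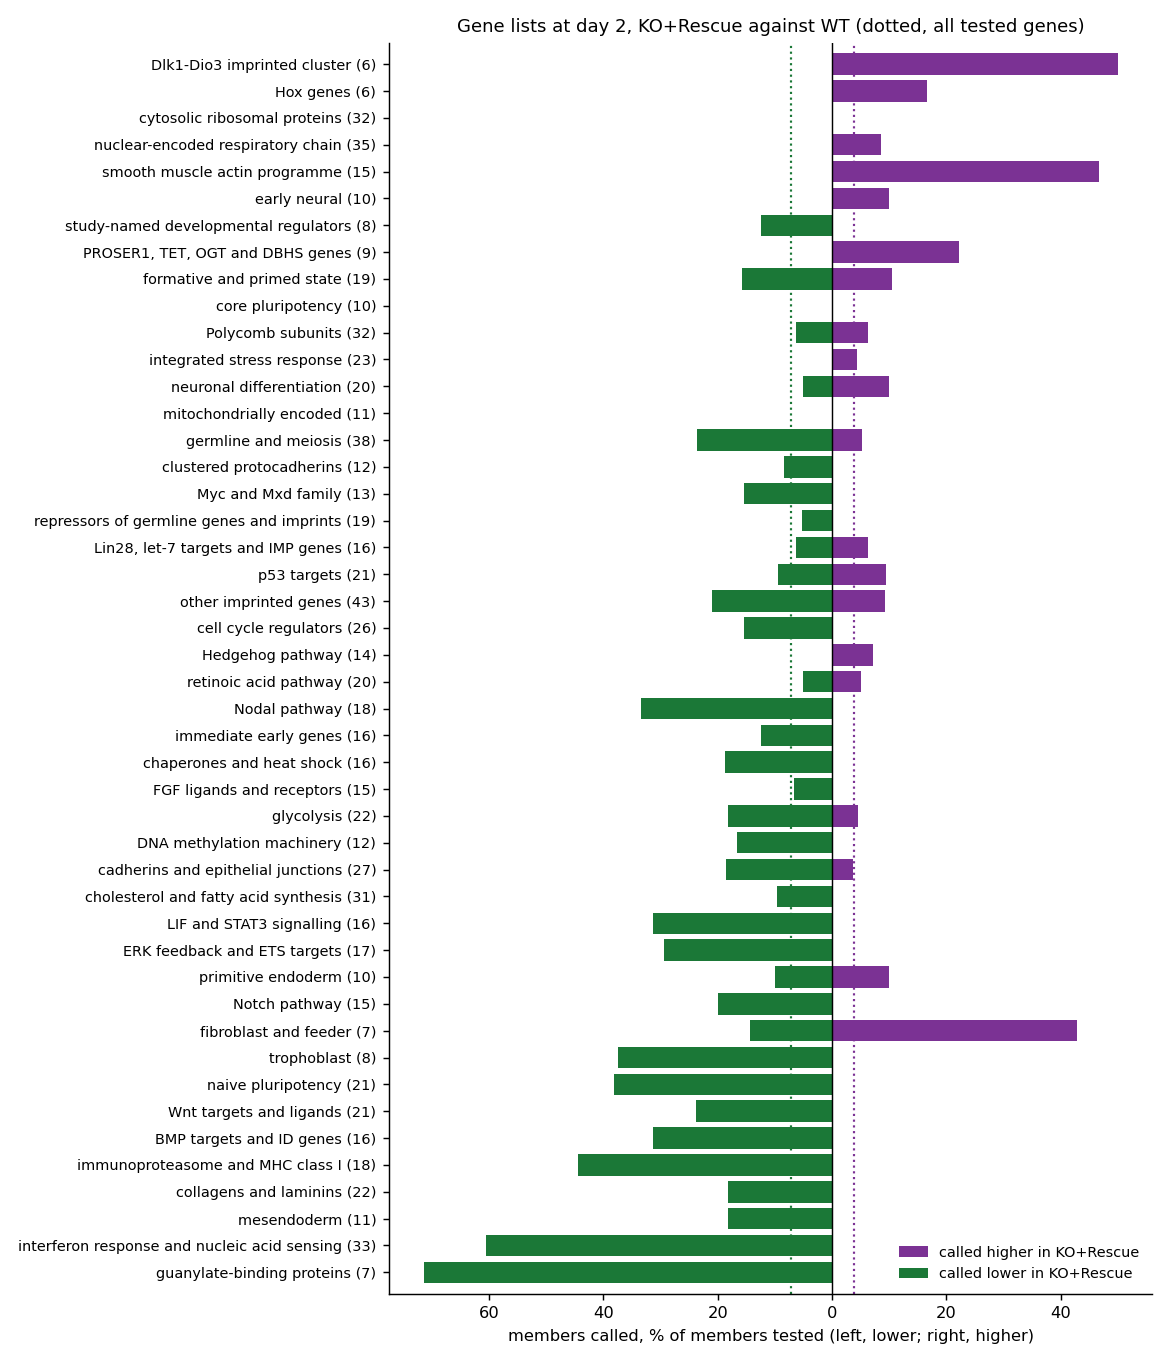
Share of tested members called higher and lower in KO+Rescue against WT at day 2 (bars to the right and to the left, % of members tested) for each gene list with at least 6 tested members, in the order of their median change, with the share over all tested genes (3.86% higher, 7.2% lower) as dotted lines. The guanylate-binding protein list has 5 of 7 members lower and the Dlk1-Dio3 cluster 3 of 6 higher.

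The called cell cycle, Myc and p53 genes had log2 changes under 1 in size. Beside the counts of this paragraph, 3.86% of all tested genes were higher and 7.2% lower. Of 26 cell cycle regulators 4 were lower and 0 higher, namely Cdkn1c, Ccnd1, Ccnd2 and the CDK inhibitor gene Cdkn1a (log2 -0.69 ± 0.16, adjusted p = 0.0169). Of 13 Myc and Mxd genes 2 were lower, Mycl (log2 -0.80 ± 0.18, adjusted p = 0.0157) and Mxi1 (log2 -0.62 ± 0.14, adjusted p = 0.0175). Among 21 p53 targets 2 were lower, Cdkn1a and the nuclease gene Aen (log2 -0.58 ± 0.11, adjusted p = 0.00743), and 2 were higher, the death gene Pmaip1 (log2 0.52 ± 0.12, adjusted p = 0.0157) and the junction gene Perp (log2 0.63 ± 0.15, adjusted p = 0.021). Ddit3, which encodes the stress factor CHOP, had 2620.0 and 2817 in KO+Rescue, against 1041 and 935 in WT (log2 1.46 ± 0.15, adjusted p = 9.78e-05), with 1624 and 1308 in KO. It was the only gene called of 23 in the integrated stress response list and remained called under all alternatives. Of 32 Polycomb subunits 2 were higher and 2 lower (6.25% each), near the shares over all tested genes. Pcgf1, a subunit of a variant Polycomb complex, had 840.1 and 1062 in KO+Rescue, against 286 and 512 in WT (log2 1.30 ± 0.25, adjusted p = 0.00649), and Rnf2, the E3 ligase subunit, was higher (log2 0.59 ± 0.15, adjusted p = 0.0229). Suz12, a core subunit of the complex that methylates histone H3, was lower (log2 -0.62 ± 0.13, adjusted p = 0.0104), as was E130012A19Rik, an entry of that list (log2 -0.62 ± 0.18, adjusted p = 0.0452). Cdkn1a, Mycl, Mxi1, Aen, Pmaip1, Perp, Rnf2, Suz12 and E130012A19Rik lost their calls without KO+Rescue A (adjusted p from 0.0512 to 0.171). Cdkn1a, Mycl, Mxi1, Aen, Pmaip1, Perp, Pcgf1, Rnf2, Suz12 and E130012A19Rik lost their calls without KO+Rescue B (adjusted p from 0.0577 to 0.212). Cdkn1a, Mycl, Perp, Rnf2 and E130012A19Rik lost their calls without WT A (adjusted p from 0.0807 to 0.301). Mxi1 lost the call without WT B (adjusted p = 0.0672). Pmaip1, Perp and Rnf2 lost their calls with equal library totals (adjusted p = 0.204, 0.0832 and 0.0826).

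The smooth muscle actin programme, which SRF and its actin-sensing cofactors switch on, was higher where it differed. Of 15 tested genes 7 were higher and 0 lower, with a median log2 change of 0.48, and the count was 3 without KO+Rescue replicate A, 3 without KO+Rescue replicate B, 5 without WT replicate A and 6 without WT replicate B. The median log2 change of this list was 0.49 for KO against WT and -0.05 for KO+Rescue against KO. Acta2, smooth muscle actin, had 84.5 and 82.7 in KO+Rescue, against 24.8 and 11.6 in WT (log2 2.23 ± 0.35, adjusted p = 0.00211). Tagln, which binds actin, had 4497 and 5007 in KO+Rescue, against 1061 and 1889 in WT (log2 1.74 ± 0.23, adjusted p = 0.000551), and Cnn2, a calponin, 4354 and 4555 in KO+Rescue, against 2437 and 2609 in WT (log2 0.82 ± 0.12, adjusted p = 0.00144). KO+Rescue values exceed WT values throughout, and these 3 genes remained called under all alternatives. Tpm1 (log2 0.53 ± 0.11, adjusted p = 0.012) and Vcl, the gene for vinculin (log2 0.65 ± 0.15, adjusted p = 0.0196), were higher by less. Acta2 and Tagln are also in the list of fibroblast and feeder markers, of which 3 of 7 were higher and 1 lower. The median log2 change of this list was -0.48, with 4 members below 0 and 3 above. Its summed normalised counts were 8947 and 9449 in KO+Rescue, 10599 and 9563 in KO and 5271 and 5081 in WT. Tagln alone held 4497 and 5007 of these in KO+Rescue and 1061 and 1889 in WT. The third one higher was Vim, the gene for vimentin (log2 0.55 ± 0.16, adjusted p = 0.0425), while Col1a1, the defining collagen of fibroblasts, was lower, with 15.3 and 20.7 in KO+Rescue, against 118 and 70.3 in WT (log2 -2.30 ± 0.56, adjusted p = 0.0215), and Col3a1, Lum, Postn and S100a4 did not pass the filter. Tpm1, Vcl, Vim and Col1a1 lost their calls without KO+Rescue A (adjusted p from 0.111 to 0.186) and without KO+Rescue B (adjusted p from 0.0635 to 0.184). Tpm1 and Col1a1 lost their calls without WT A (adjusted p = 0.0728 and 0.131). Vcl and Vim lost their calls without WT B (adjusted p = 0.0556 and 0.202). Tpm1, Vcl and Vim lost their calls with equal library totals (adjusted p = 0.11, 0.178 and 0.271).

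Matrix and junction genes were also read against the 7.2% lower and 3.86% higher over all tested genes. Of 22 collagen and laminin genes 4 were lower and 0 higher, and the count was 3 without KO+Rescue replicate A, 3 without KO+Rescue replicate B, 3 without WT replicate A and 7 without WT replicate B. Lama3, a laminin chain of epithelial basement membranes, had 127 and 147 in KO+Rescue, against 567 and 611 in WT (log2 -2.10 ± 0.16, adjusted p = 6.16e-06). Col18a1 had 4737 and 4894 in KO+Rescue, against 12332 and 8693 in WT (log2 -1.10 ± 0.19, adjusted p = 0.00347), and Sparc, a collagen-binding protein, 2814 and 2368 in KO+Rescue, 5980.4 and 5741 in KO and 4515 and 4359.6 in WT (log2 -0.78 ± 0.12, adjusted p = 0.00191 against WT). For Sparc the KO values lie above both others. Of 27 cadherin and junction genes 5 were lower and 1 higher. Cldn4, a claudin of tight junctions, had 2113 and 2271 in KO+Rescue, against 4305 and 4789 in WT (log2 -1.05 ± 0.11, adjusted p = 0.000133). Lama3, Col18a1, Sparc and Cldn4 remained called under all alternatives. The others lower were Tjp3 (log2 -1.07 ± 0.19, adjusted p = 0.00495), Cdh3 or P-cadherin (log2 -1.11 ± 0.23, adjusted p = 0.0107), Snai1, a driver of epithelial-mesenchymal transition (log2 -1.50 ± 0.32, adjusted p = 0.0109), and Grhl2, and the one higher was Vim. Among 12 protocadherins 1 was lower, Pcdhga12 (log2 -1.10 ± 0.33, adjusted p = 0.047). Cdh3, Snai1 and Pcdhga12 lost their calls without KO+Rescue A (adjusted p = 0.0683, 0.106 and 0.205) and without WT A (adjusted p = 0.08, 0.0646 and 0.219). Tjp3, Cdh3 and Pcdhga12 lost their calls without KO+Rescue B (adjusted p = 0.0663, 0.0864 and 0.143). Pcdhga12 lost the call without WT B (adjusted p = 0.0816).

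Markers of other cells that the cultures could hold were checked in the same fit. Of 8 trophoblast genes 3 were lower and 0 higher, with summed normalised counts of 3105 and 2889 in KO+Rescue, against 4628 and 4204 in WT. Tfap2c, also a gene of naive and germ cells, had 39.9 and 67.6 in KO+Rescue, against 167 and 157 in WT (log2 -1.62 ± 0.20, adjusted p = 0.000383), and Krt18 (log2 -0.70 ± 0.14, adjusted p = 0.0083) and Ascl2 (log2 -1.33 ± 0.28, adjusted p = 0.0101) were lower. Cdx2 was not called, and Elf5 and Hand1 did not pass the filter. Of 10 primitive endoderm genes 1 was higher and 1 lower, with sums of 3962 and 4059.9 in KO+Rescue, against 6035 and 3992 in WT. Gata4 had 55.1 and 48.8 in KO+Rescue, against 22.4 and 17.4 in WT (log2 1.35 ± 0.40, adjusted p = 0.0459), and Cubn, a receptor of visceral endoderm, 7.04 and 6.58 in KO+Rescue, against 25.4 and 31.2 in WT (log2 -1.90 ± 0.46, adjusted p = 0.0204). The sums overlap between the groups, and Gata6 and Sox17, the defining factors, did not pass the filter. The part of other cells in the results above was not tested. Krt18, Ascl2, Gata4 and Cubn lost their calls without KO+Rescue A (adjusted p from 0.0559 to 0.207). Krt18, Gata4 and Cubn lost their calls without KO+Rescue B (adjusted p = 0.0809, 0.162 and 0.108). Gata4 and Cubn lost their calls without WT A (adjusted p = 0.114 and 0.0872) and without WT B (adjusted p = 0.13 and 0.0731). Gata4 lost the call with equal library totals (adjusted p = 0.0868).

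For metabolic and chaperone genes the shares over all tested genes, 7.2% lower and 3.86% higher, are the background. Of 22 glycolysis genes 4 were lower and 1 higher. Pdk1, the kinase that keeps pyruvate from the mitochondrion, had 12370.2 and 11963 in KO+Rescue, 7197 and 6615 in KO and 20979 and 22235 in WT (log2 -0.83 ± 0.15, adjusted p = 0.00402 against WT) and remained called under all alternatives. Slc2a3, a glucose transporter, was higher (log2 0.69 ± 0.14, adjusted p = 0.0101), while Pfkp (log2 -0.59 ± 0.15, adjusted p = 0.0245), Pfkl (log2 -0.52 ± 0.15, adjusted p = 0.0466) and Slc2a1 (log2 -0.48 ± 0.14, adjusted p = 0.0494) were lower. Of 31 genes of cholesterol and fatty acid synthesis 3 were lower, Dhcr7 (log2 -0.62 ± 0.14, adjusted p = 0.017), Acly (log2 -0.55 ± 0.15, adjusted p = 0.0346) and Lss (log2 -0.42 ± 0.12, adjusted p = 0.0465), and 0 higher. Among 16 chaperones 3 were lower. Hspb1, a small heat shock protein, had 930.4 and 913 in KO+Rescue, against 2081 and 1767 in WT (log2 -1.06 ± 0.15, adjusted p = 0.00115), called under all alternatives. Hsp90b1 (log2 -0.67 ± 0.14, adjusted p = 0.0115) and Pdia4 (log2 -0.52 ± 0.13, adjusted p = 0.0221), which fold proteins in the endoplasmic reticulum, were the others. Slc2a3, Pfkp, Pfkl, Slc2a1, Dhcr7, Acly, Lss and Pdia4 lost their calls without KO+Rescue A (adjusted p from 0.0512 to 0.215). Slc2a3, Pfkp, Pfkl, Slc2a1, Dhcr7, Acly, Lss, Hsp90b1 and Pdia4 lost their calls without KO+Rescue B (adjusted p from 0.0887 to 0.207). Slc2a3, Pfkl, Slc2a1, Dhcr7, Acly, Lss and Pdia4 lost their calls without WT A (adjusted p from 0.0519 to 0.278). Pfkp lost the call without WT B (adjusted p = 0.0893). Slc2a3 lost the call with equal library totals (adjusted p = 0.091).

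Of 35 nuclear-encoded respiratory chain genes 3 were higher and 0 lower, with a median log2 change of 0.52, and the count was 0 without KO+Rescue replicate A, 0 without KO+Rescue replicate B, 0 without WT replicate A and 21 without WT replicate B. They were Ndufa2 (log2 0.66 ± 0.16, adjusted p = 0.0214), Uqcr10 (log2 0.99 ± 0.25, adjusted p = 0.0266) and Cox5b (log2 0.84 ± 0.24, adjusted p = 0.0408), subunits of complexes of the chain. Ndufa2, Uqcr10 and Cox5b lost their calls without KO+Rescue A (adjusted p = 0.106, 0.11 and 0.156), without KO+Rescue B (adjusted p = 0.138, 0.165 and 0.202) and without WT A (adjusted p = 0.109, 0.177 and 0.274). Of 32 cytosolic ribosomal protein genes 0 were called by limma, with a median of 0.56. At an unadjusted p under 0.05 there were 16, while edgeR called 4 higher and 0 lower and DESeq2 8 higher and 0 lower. Among them, Rps3, the member with the highest mean, had 353177 and 445506 in KO+Rescue, against 206753 and 284252 in WT (log2 0.71 ± 0.31, adjusted p = 0.148). The count called higher was 0 without KO+Rescue replicate A, 0 without KO+Rescue replicate B, 0 without WT replicate A and 9 without WT replicate B. The share of all reads in ribosomal protein genes given above was higher in both KO+Rescue libraries than in both WT libraries. Of 11 genes that the mitochondrion encodes 0 were called by limma. None had an unadjusted p under 0.05, and edgeR and DESeq2 called 0. COX1 had 36617 and 34082 in KO+Rescue, against 36112 and 37742 in WT (log2 -0.06 ± 0.21, adjusted p = 0.876).

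Genes that host snoRNAs made up several of the largest gains. Such genes carry snoRNAs, most of them guides for the modification of ribosomal RNA, in their introns. Zfas1 had 5926 and 6738 in KO+Rescue libraries A and B, against 1186 and 1406 in WT libraries A and B, 4.89-fold higher (log2 2.29 ± 0.23, adjusted p = 5.95e-05), with 1753 and 2081 in KO. Snhg1 had 9823 and 11313 in KO+Rescue, against 1958 and 3291 in WT, 4.15-fold higher (log2 2.05 ± 0.28, adjusted p = 0.000718), with 3473 and 4475 in KO. KO+Rescue lay above both other genotypes in both genes, and against KO the change was log2 1.73 ± 0.23, adjusted p = 0.0021 for Zfas1 and log2 1.42 ± 0.28, adjusted p = 0.024 for Snhg1. Both calls against WT were kept under all alternatives. Zfas1 starts beside Znfx1 on the opposite strand, and the strand setting of the counting is not given in the sources used here, so reads of the 2 genes may be mixed. A list of 17 snoRNA host genes, chosen after these values were seen, held 8 higher and 0 lower, beside 3.86% of all tested genes higher, with a median log2 change of 0.66. The number higher was 2 without KO+Rescue A, 3 without KO+Rescue B, 3 without WT A, 10 without WT B and 5 with no filter, and 0 were lower in each of these fits. Its median was 0.39 for KO against WT and 0.24 for KO+Rescue against KO. Gas5 had 7744 and 7023 in KO+Rescue, against 2901 and 3808 in WT (log2 1.15 ± 0.22, adjusted p = 0.00618), and Snhg15 936 and 1112 in KO+Rescue, against 417 and 562 in WT (log2 1.07 ± 0.23, adjusted p = 0.0115), both chosen after their values were seen. Gas5 and Snhg15 lost their calls without KO+Rescue A (adjusted p = 0.0669 and 0.0512). Snhg15 lost the call without KO+Rescue B (adjusted p = 0.112) and without WT A (adjusted p = 0.0717).

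Small RNAs of other kinds were also among the largest gains, although the library kit does not aim at them. Rpph1, the RNA of RNase P, had 2165 and 3149 in KO+Rescue, 778 and 1069 in KO and 105 and 464 in WT (log2 3.55 ± 0.53, adjusted p = 0.00143 against WT), and the WT libraries differed from each other more than 4-fold. Mir6516 had 356 and 271 in KO+Rescue, against 24.8 and 73.2 in WT (log2 2.83 ± 0.53, adjusted p = 0.00586). Cd99, a surface glycoprotein gene, had 194 and 115 in KO+Rescue, 162 and 204 in KO and 24.2 and 18.1 in WT (log2 2.77 ± 0.29, adjusted p = 0.000109 against WT). KO+Rescue and KO lie together above WT for Cd99. The unnamed loci Gm41231 (log2 2.14 ± 0.39, adjusted p = 0.00482) and LOC105246114 (log2 1.90 ± 0.40, adjusted p = 0.0113) were higher at low counts. Among the 15 largest losses not yet described, Slc5a4a had 9.39 and 0 in KO+Rescue, against 72 and 51.4 in WT (log2 -4.26 ± 1.01, adjusted p = 0.0191). Ephx3, an epoxide hydrolase, had 4.69 and 2.82 in KO+Rescue, against 62.3 and 85.5 in WT (log2 -3.99 ± 0.75, adjusted p = 0.00599), and Fbxo40 2.35 and 5.64 in KO+Rescue, against 95.6 and 54.3 in WT (log2 -3.96 ± 0.76, adjusted p = 0.00688). Cd7, a surface protein of lymphocytes, had 8.21 and 4.70 in KO+Rescue, against 96.2 and 112 in WT (log2 -3.85 ± 0.63, adjusted p = 0.00258), and its call was kept under all alternatives. A library at 0, as KO+Rescue B was for Slc5a4a, allows up to 3 reads, and fitted changes of such genes depend on the pseudocount of 1. Mir6516, LOC105246114 and Fbxo40 lost their calls without KO+Rescue A (adjusted p = 0.0658, 0.0589 and 0.0737). Gm41231, LOC105246114, Slc5a4a and Ephx3 lost their calls without KO+Rescue B (adjusted p from 0.0565 to 0.167). LOC105246114, Slc5a4a and Fbxo40 lost their calls without WT A (adjusted p = 0.0609, 0.0998 and 0.0555).

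By position, chromosome 11 had the lowest median change of the 20 chromosomes with tested genes. Of its 1233 tested genes 203 were lower (16.5%) and 19 higher (1.54%), with a median log2 change of -0.27. The other 19 chromosomes had medians from -0.07 to 0.08, with 3.89% to 8.56% of genes lower. The median over chromosome 11 was -0.27 in KO+Rescue A and -0.25 in KO+Rescue B, each against the mean of WT, and -0.14 and -0.19 in the KO libraries. The WT libraries lay at -0.02 and 0.02 around their own mean. With boundaries set after the data were seen, the 231 genes from 0 to 50 Mb had a median of -0.0035 and the 1002 genes from 50 Mb to the end -0.30, with 18.4% of the second stretch lower. On chromosome 16 the 87 genes from 70 to 100 Mb had a median of 0.28 in KO+Rescue, with 15 higher and 0 lower, and 0.58 in KO. Hmgn1, a nucleosome-binding protein gene in that stretch and named after its values were seen, had 73655 and 71011 in KO+Rescue, 80367 and 87613 in KO and 20567 and 25435 in WT (log2 1.66 ± 0.19, adjusted p = 0.000231 against WT), kept under all alternatives. Irf1, whose promoter is shown above, lies in the stretch of chromosome 11 from 50 Mb to the end, as an example only. Most other named genes are not listed here by position, and further ones may lie in these stretches. The lists were read without regard to position, and the part of these stretches in their counts was not tested. Genes of one chromosome are not replicates, and no test was made.

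**Figure D5:**
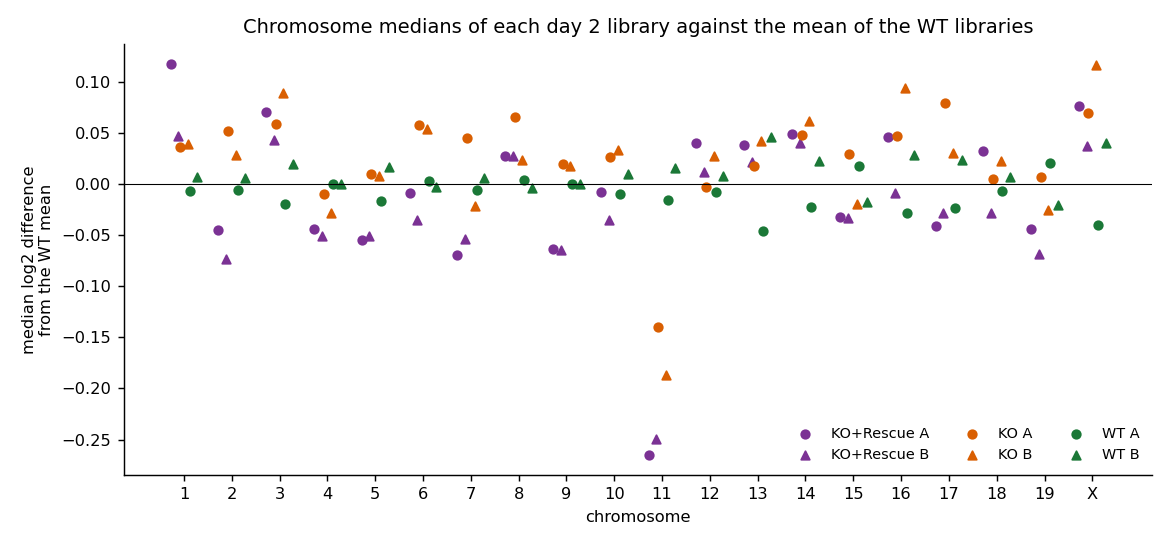
Median log2 change over the tested genes of each chromosome at day 2, with a point for each KO+Rescue, KO and WT library against the mean of WT (circles for A, triangles for B). Chromosome 11 has medians of -0.27 and -0.25 in the KO+Rescue libraries and the other chromosomes lie near 0.

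The difference between the rescued line and WT was also set against the same difference in mESCs. In mESCs 18.2% of tested genes were called between KO+Rescue and WT. The difference itself differed between the stages in 124 genes (0.809% of those tested), of which 34 (0.222%) had a higher and 90 (0.587%) a lower log2 change at day 2 than in mESCs. At an unadjusted p under 0.05 there were 1990 such genes. Leaving out 1 of the 8 libraries gave 27 to 229 calls, the lowest without KO+Rescue mESC B and the highest without WT day 2 A, and the count was 36 without KO+Rescue day 2 A, 29 without KO+Rescue day 2 B, 63 without WT day 2 B and 53 without WT mESC A.

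Zbp1 had 4.69 and 2.82 in KO+Rescue, against 130.1 and 146 in WT at day 2 and 27.2 and 33.8 in KO+Rescue mESC, against 65.2 and 62.1 in WT mESC, a difference of log2 -3.85 ± 0.54, adjusted p = 0.0075. The WT values at day 2 are the highest of the 4 groups. Gsta3, a glutathione transferase, had 23.5 and 25.4 in KO+Rescue, against 172 and 151 in WT at day 2 and 1288 and 2080.1 in KO+Rescue mESC, against 923 and 1374 in WT mESC (log2 -3.22 ± 0.37, adjusted p = 0.00168). Grb10 differed in the other direction, with 2771 and 2761 in KO+Rescue, against 6002 and 4629.9 in WT at day 2 and 268 and 287 in KO+Rescue mESC, against 3792 and 2858 in WT mESC (log2 2.64 ± 0.23, adjusted p = 0.000477), so that a gap of log2 -3.57 in mESCs was -0.93 at day 2. Sema6a, a semaphorin, had 3508 and 3313 in KO+Rescue, against 3039 and 2586 in WT at day 2 and 14.6 and 14.2 in KO+Rescue mESC, against 94.8 and 56 in WT mESC (log2 2.54 ± 0.30, adjusted p = 0.00168). The KO+Rescue values lie under the WT values in mESCs and above them at day 2. Sema6a was not called between KO+Rescue and WT at day 2 (log2 0.28, adjusted p = 0.399 by limma). These 4 differences remained called under all alternatives.

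The other 6 genes named for the stage difference lost their call when single libraries were left out and with no filter (adjusted p = 0.0795 to 0.114), and all of them but Gm39714 also with equal library totals (adjusted p = 0.054 to 0.0714). Gm39714 was at 0 in both KO+Rescue libraries at day 2, against 10.9 and 26.1 in WT, at least 5.83-fold lower by a floor of 3 reads per library, and had 113 and 114 in KO+Rescue mESC, against 96 and 154 in WT mESC (log2 -4.07 ± 0.70, adjusted p = 0.0215; adjusted p between 0.0523 and 0.0854). Asb4 had 22.3 and 7.51 in KO+Rescue, against 70.2 and 50.7 in WT at day 2 and 49.1 and 42.7 in KO+Rescue mESC, against 13 and 21.4 in WT mESC (log2 -3.51 ± 0.66, adjusted p = 0.0342; adjusted p between 0.0516 and 0.108). Olfml1 had 1.17 and 3.76 in KO+Rescue, against 30.9 and 62.3 in WT at day 2 and 58.6 and 55.2 in KO+Rescue mESC, against 72.3 and 86.5 in WT mESC (log2 -3.34 ± 0.65, adjusted p = 0.0404; adjusted p between 0.08 and 0.129). In these 3 genes the day 2 groups do not overlap, and WT is the higher one. Hrk, a death gene of neurons, had 255 and 209 in KO+Rescue, against 159 and 107 in WT at day 2 and 6.27 and 14.2 in KO+Rescue mESC, against 69.9 and 29.5 in WT mESC (log2 2.96 ± 0.61, adjusted p = 0.0446; adjusted p between 0.0537 and 0.175). Htr3a, a serotonin-gated channel, had 83.3 and 88.3 in KO+Rescue, against 172 and 157 in WT at day 2 and 0 and 0 in KO+Rescue mESC, against 9.48 and 11.2 in WT mESC (log2 2.57 ± 0.50, adjusted p = 0.0404; adjusted p between 0.0508 and 0.166). Both KO+Rescue mESC libraries were at 0 for Htr3a, so the fitted difference is no bound and depends on the pseudocount, and its call was also lost with a pseudocount of 5 (log2 0.71, adjusted p = 0.444), by edgeR (log2 5.59, adjusted p = 0.0665) and by DESeq2 (log2 4.42, adjusted p = 0.1), as was that of Gm39714 with a pseudocount of 5 (adjusted p = 0.0858). Egr1, an immediate early gene, had 642 and 654 in KO+Rescue, against 1104 and 1014 in WT at day 2 and 26.1 and 10.7 in KO+Rescue mESC, against 151 and 162 in WT mESC (log2 2.43 ± 0.48, adjusted p = 0.0404; adjusted p between 0.0577 and 0.163). None of Hrk, Htr3a and Egr1 was called between KO+Rescue and WT at day 2 with limma, at adjusted p = 0.23, 0.107 and 0.187, and unadjusted p = 0.0797, 0.0215 and 0.0573. For these genes the calls ended without each of KO+Rescue day 2 A, KO+Rescue day 2 B, KO+Rescue mESC B, WT day 2 B and WT mESC A, except that Olfml1 kept its call without KO+Rescue day 2 B and Asb4 without KO+Rescue day 2 A. They also ended without KO+Rescue mESC A, except for Egr1, and without WT mESC B for Htr3a and Egr1 and without WT day 2 A for Htr3a.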

How the data were processed

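RNA of KO+Rescue, KO and WT cells was sequenced from directional NEBNext Ultra II libraries, 2 a group. The authors trimmed reads with Trimmomatic, aligned them to mm10 with STAR, counted read pairs per RefSeq gene with featureCounts and scaled the counts with DESeq2. The versions are not given in the sources used here. The deposited values are thus a signal of size-factor-normalised counts. In each library 100% of values were whole multiples of the value of 1 read (tolerance 0.001), which gave back whole counts and depths.

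Of 35976 genes 10334 were at 0 throughout. The 15335 genes tested had a mean of at least 10 over the 12 libraries, after 6 Y-linked genes were left out. The log2 of the normalised count plus 1 was fitted with limma 3.58.1 (R 4.3.3) as 6 group means over 12 libraries with an intensity trend, two-sided, with Benjamini-Hochberg adjustment over all tested genes. The ± values are standard errors. A call is an adjusted p under 0.05. Alternatives were equal library totals, edgeR 4.0.16, DESeq2 1.42.0 on the whole counts, other pseudocounts and filters, the replicate letter as a block, fewer libraries and each library left out.

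Genes were named by rule: Proser1, the 15 largest called changes in each direction (mean of at least 50 in the higher group, groups not overlapping), up to 5 called members per list or else the member with the highest mean, the 9 regulators the study names, and 5 genes each way for the stage difference (mean of at least 50 in 1 of the groups). This named 157 genes, some of which are not reported here. Exceptions are marked as named after their values were seen. The members and the 47 lists (777 genes) were chosen with earlier results of these data known. No label says whether the letters A and B pair the libraries, and the main fit did not pair them. Positions and promoters are from RefSeq (GRCm38.p6).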

Additional observations from a re-analysis of the deposited data

Results flagged for a closer look

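For 10 genes the log2 change of KO+Rescue over WT at day 2 differed from that in mESCs, by limma's test of the difference itself. The difference, day 2 minus mESC, was -4.07 for Gm39714, -3.85 for Zbp1, -3.51 for Asb4, -3.34 for Olfml1 and -3.22 for Gsta3, whose KO+Rescue levels were lower relative to WT at day 2 than in mESCs. It was 2.96 for Hrk, 2.64 for Grb10, 2.57 for Htr3a, 2.54 for Sema6a and 2.43 for Egr1, whose levels were higher relative to WT at day 2 than in mESCs. These are the 5 largest in each direction among the called differences of genes at a mean of at least 50 in 1 of the groups, and the values of each library are given in the report. Groups of 2 libraries were too small to look for a sample far from the others.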

How the results depend on the processing

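Genes with a mean under 50 were not tested in the fit with that filter, so the counts below do not cover them there. Of 140 reported genes that the rule named and that were called at day 2, all 140 kept their direction under the alternatives that tested them. Of these, 59 kept their call under each such alternative. The call was lost by 68 of them without KO+Rescue A, 69 without KO+Rescue B, 50 without WT A, 12 without WT B, 49 in a fit of the 4 libraries alone, 21 with no filter, 11 with equal library totals, 11 in a fit of the 6 day 2 libraries, 6 by edgeR, 3 with a pseudocount of 0.5 and 0 by DESeq2, with a pseudocount of 5, with a mean of at least 50 and with the block. The reason was not tested, apart from the fewer samples or more genes that some of these fits hold.

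For the day 2 comparison, 1696 calls (592 higher, 1104 lower) became 1949 (362 higher, 1587 lower) with equal library totals, 1907 (844 higher, 1063 lower) by edgeR, 2527 (960 higher, 1567 lower) by DESeq2, 1170 (305 higher, 865 lower) with no filter, 686 (210 higher, 476 lower) from the 4 libraries alone and 1975 (850 higher, 1125 lower) from the 6 day 2 libraries. Leaving out 1 library gave 455 to 2662 calls, 65 to 1592 higher and 381 to 1070 lower. For the stage difference, 124 calls (34 higher, 90 lower) became 40 (11 higher, 29 lower) with equal library totals, 145 (65 higher, 80 lower) by edgeR, 381 (132 higher, 249 lower) by DESeq2 and 41 (10 higher, 31 lower) with no filter. Leaving out 1 library gave 27 to 229 calls, 4 to 82 higher and 20 to 157 lower. Of 1314 list counts compared, 1032 were within 1.5 times the count in the report.

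The replicate letter as a block within a stage gave 3308 calls (1629 higher, 1679 lower) at day 2 and 330 (120 higher, 210 lower) for the stage difference. Same-lettered KO+Rescue and WT libraries deviated together with r = 0.0605 over genes at day 2 and 0.171 in mESCs. No label says whether libraries of one letter were made together, and these values cannot decide it.

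Signs turned only in genes that were not called. With equal library totals the log2 change was -0.0038 for Cbx8, -0.16 for Ogt, -0.082 for Nono, -0.15 for Sfpq, -0.066 for Sox2 and -0.012 for Ifngr1. With 1 library left out it ranged from -0.58 to 0.15 for Nanog, -0.056 to 0.14 for Ogt, -0.28 to 0.37 for Sfpq, -0.20 to 0.091 for Dnmt1, -0.042 to 0.84 for Nes, -0.14 to 0.51 for Ifngr1, -0.25 to 0.0079 for Jak1 and -0.70 to 0.24 for Nlrc5. Depth limits genes near the floor of 3 reads, such as Gm39714, Mirg and Zscan4d.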
